A study of Danio rerio with 56 samples.

Results

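The transcripts described here are those that were abundant in the unfertilised zebrafish egg and stood at nearly the same level in the embryo at 10 hours post fertilisation (hpf). The level is in TPM, a length-corrected share of the RNA of a library. E is the mean TPM of the 4 control egg libraries and M the mean TPM of the 4 Control 10hpf libraries. The members were selected on these values: transcripts with E of at least 10 TPM and M/E between 0.8 and 1/0.8 were kept, so that neither mean was under 0.8 times the other, and the 200 with the highest E were taken out of 57192 measured. The choice used both control groups, so M/E and every value of the control embryo to egg contrast describe the choice and carry no test. The other 16 libraries were not used by it.

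All fish were of the 5D strain. Parents aged 120 days at the start had eaten flakes for 21 days, either with benzo[a]pyrene (BaP) at 25 µg per g of fish, which was 1250 µg per g of food, or with the acetone vehicle alone. Each of the 6 RNA groups had 4 libraries. BaP eggs came from BaP-fed mothers and control eggs from mothers on vehicle flakes. The embryos came from 4 crosses and are named as the labels name them: BaP 10hpf, taken to mean a BaP-fed father and mother since each other cross has its own label, Cm.Bf.10hpf with only the mother BaP-fed, Cf.Bm.10hpf with only the father BaP-fed, and Control 10hpf with neither. Tanks and spawnings of the libraries are not named, and p-values measure only the spread between these libraries.

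An egg is loaded by its mother with RNA that directs the first cell divisions before the embryo's own genome is transcribed. During the maternal-to-zygotic transition many of these stored RNAs are broken down while the zygotic genome is switched on. By 10 hpf a zebrafish embryo is at the end of gastrulation, so its RNA is a mix of surviving maternal copies and new copies. A transcript at the same level before and after can be a stored RNA that was kept, an RNA that was lost and made again, or a mix, and RNA levels cannot tell these apart. BaP is a polycyclic aromatic hydrocarbon that binds the aryl hydrocarbon receptor and is converted by cytochrome P450 enzymes to products that form DNA adducts.

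Library totals ran from 26010776 estimated read counts in the Cf.Bm.10hpf group to 55044612 in the BaP eggs. The rows carry Ensembl transcript identifiers, and 0 of the 200 matched the gene tables in use here. No gene name, function or sequence is therefore given, markers of stage or tissue could not be looked up, and transcripts are described by identifier, length and level. All 200 had a count in all 24 libraries. In bulk RNA of eggs and embryos, fewer cells of a type and less RNA per cell cannot be told apart.

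Keeping a level was the less common course. Of the 11597 transcripts with E of at least 10 TPM, 8084 (69.7%) had an M/E under 0.8, 1973 (17.0%) had one over 1/0.8, and 1540 (13.3%) fell inside the window. The 200 reached down to an E of 87.5 TPM. At or above that level stood 1489 other transcripts, of which 1005 had an M/E under 0.8 and 484 an M/E over 1/0.8. These 1489 serve below as the transcripts of like egg level.

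At the edges of the set the values on either side were close. The last transcript taken, ENSDART00000055430.4, had an E of 87.5 TPM and the first left out, ENSDART00000131354.2, had 87.1 TPM. Nearest inside the lower bound of the ratio was ENSDART00000105176.4 at 0.801, and nearest outside was ENSDART00000058460.4 at 0.799. At the upper bound ENSDART00000174373.2 stood inside at 1.249, and ENSDART00000059013.6 was just outside with an E of 222 TPM and an M of 277 TPM.

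Most of the 200 were moderately abundant, and a few short ones carried most of the summed level. The median E was 135 TPM, 168 had an E of at least 100 TPM, 56 of at least 200 TPM and 17 of at least 1000 TPM. Those 17 held 65.3% of the summed E. Lengths ran from 165 to 9208 bases with a median of 1453.5 bases, against a median of 1367 bases in the transcripts of like egg level. The 25 transcripts of up to 500 bases held 52.5% of the summed E.

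For a short transcript TPM rests on a small divisor. The highest member, ENSDART00000186090.1, is 168 bases long. Its effective length, the deposited length that TPM divides by, was 8 bases in 23 libraries and 9 bases in the other. Its E was 24013 TPM, 24.3% of the summed E of the 200, but its mean estimated count in control eggs was 5704, which ranked it 98 of the 200 by CPM, the count as a share of the library's total. Another 2 members had an effective length under 30 bases. These 3 together held 27.0% of the summed E and 0.409% of the estimated counts of the 200. One of them, ENSDART00000180344.1, is 207 bases long and had a mean of 77.5 estimated counts in control eggs.

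ENSDART00000186090.1 was also among the least even members between libraries of 1 group. It had 26425, 72041, 23489.6 and 66640.3 TPM in BaP 10hpf embryos, 51565, 28525, 29754 and 30664 TPM in Cm.Bf.10hpf embryos, 18042, 44487, 18590.5 and 21053 TPM in Cf.Bm.10hpf embryos and 42708, 19369, 36762 and 16004 TPM in Control 10hpf embryos. BaP eggs had 25391, 16856, 36574 and 21836 TPM and control eggs 24638, 26145, 18724 and 26545 TPM. A pair of BaP 10hpf libraries and 1 or 2 libraries of each other cross stood high. All 4 embryo groups overlapped with each other and with BaP eggs, and the Cm.Bf.10hpf libraries were all above the control egg libraries. The second highest, ENSDART00000189523.1 of 432 bases, had group mean effective lengths between 372 and 401 bases and averaged 9381 ± 1801 TPM in BaP eggs and 9569.9 ± 444 TPM in control eggs (SD, n = 4 each). In the embryos it averaged 11386 ± 3239 TPM in BaP 10hpf, 10426 ± 1415 TPM in Cm.Bf.10hpf, 9745 ± 2585 TPM in Cf.Bm.10hpf and 9245 ± 3034 TPM in Control 10hpf (SD, n = 4 each).

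The summed share of the 200 showed that unevenness. They took 9.85% ± 0.979 of all TPM in BaP eggs and 9.88% ± 0.445 in control eggs. In embryos they took 13.0% ± 3.20 in BaP 10hpf, 11.5% ± 1.22 in Cm.Bf.10hpf, 10.7% ± 1.51 in Cf.Bm.10hpf and 10.7% ± 1.97 in Control 10hpf (SD, n = 4 each). The 2 BaP 10hpf libraries with high ENSDART00000186090.1 reached 16.3% and 15.2%, and the other 2 stood at 10.4% and 10.1%. Without that transcript the rest took 8.28% ± 0.643 of TPM in BaP 10hpf, 7.98% ± 0.246 in Cm.Bf.10hpf, 8.16% ± 0.282 in Cf.Bm.10hpf and 7.83% ± 0.701 in Control 10hpf, against 7.33% ± 0.175 in BaP eggs and 7.47% ± 0.166 in control eggs. The same 2 BaP 10hpf libraries still stood higher without it, at 9.05% and 8.56% against 7.73% and 7.77% in the other 2. ENSDART00000189523.1 was also higher in those 2, at 14886 and 13376 TPM against 8327 and 8956 TPM. The split was thus not confined to the highest member. The median TPM over the 200 lay between 126 and 147 in every one of the 24 libraries.

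**Figure D1:**
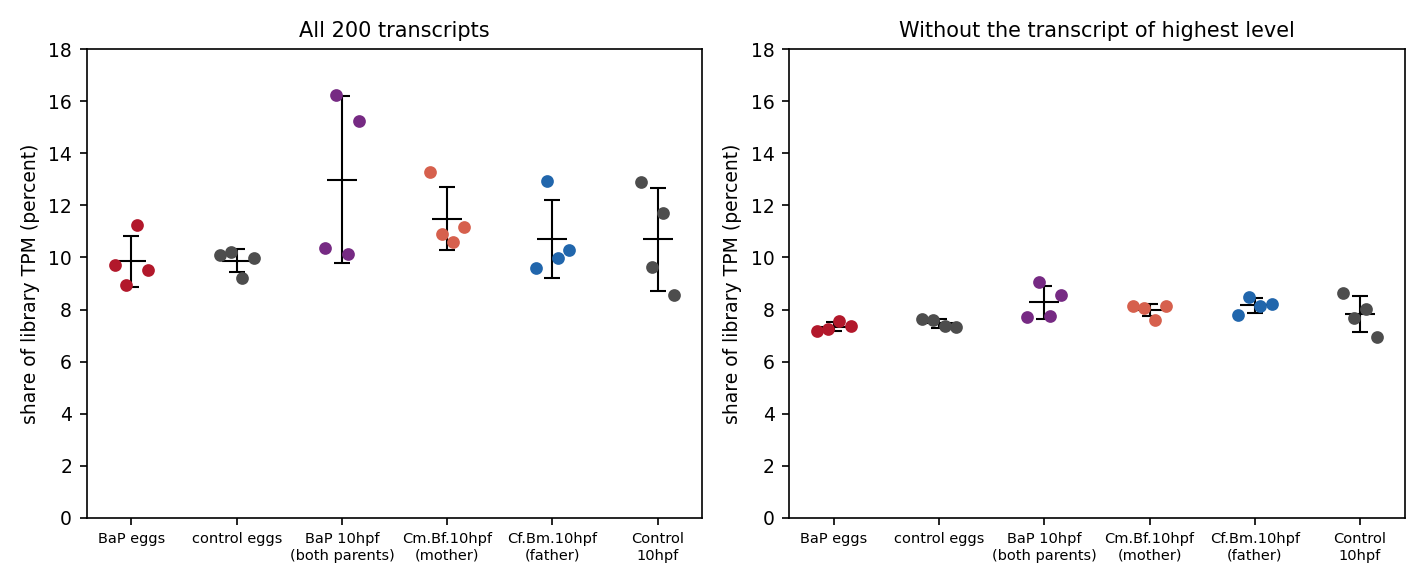
Share of library TPM (percent) taken by the 200 transcripts (left) and without ENSDART00000186090.1 (right), 1 point per library, with the mean and SD of the 4 libraries of each group. On the left the BaP 10hpf libraries split into 16.3% and 15.2% against 10.4% and 10.1%, and on the right the range over all 24 libraries is 6.96% to 9.05%.

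The BaP lineage gave a view of the same step in libraries that the choice had not used. The mean TPM of BaP 10hpf embryos over that of BaP eggs was within 0.8 to 1/0.8 for 163 of the 200, under 0.8 for 24 and over 1/0.8 for 13, with a median of 0.996. Over all transcripts with a mean of at least 1 TPM, 10.2% were within that window. For Cm.Bf.10hpf embryos over BaP eggs, 167 of the 200 were within it, 17 under and 16 over, with a median of 1.03, beside 10.0% of all transcripts. Both ratios share the BaP eggs. Of the 1489 transcripts of like egg level, which the choice had placed outside the window in controls, 40 (2.69%) and 33 (2.22%) were inside it in BaP 10hpf over BaP eggs and in Cm.Bf.10hpf over BaP eggs.

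In the BaP lineage, the members near the lower bound of the window in controls left it most often. With a control M/E of 0.8 to 0.9, 21 of 41 stayed inside for BaP 10hpf over BaP eggs and 20 were under it. With 0.9 to 1.0 it was 41 of 46, with 1.0 to 1.1 it was 42 of 45, and from 1.1 up to the bound it was 59 of 68. For Cm.Bf.10hpf over BaP eggs 26 of 41, 44 of 46, 41 of 45 and 56 of 68 stayed inside, in the same order. Members close to a bound need only a small change to cross it, at either end of the window. In the lowest band the median ratio was 0.801 for BaP 10hpf and 0.833 for Cm.Bf.10hpf over BaP eggs, where the control median was 0.830. In the highest band it was 1.12 and 1.16, where the control median was 1.18. Why members left more often at the lower bound was not tested. Across the 200 the log2 ratio of BaP 10hpf over BaP eggs and the control log2 ratio had a Pearson r of 0.727 and a Spearman rho of 0.787. They share no library, the window narrows the control ratio, and transcripts are not independent replicates. Over 1630 transcripts with E and BaP egg mean of at least 87.5 TPM, members not excluded and with no window, r was 0.989. Ratios run much wider there. In the transcripts of like egg level M/E ran from 0.0058 to 2.51 (10th to 90th percentile), so this r is not comparable with that of the 200.

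Staying level was also less common among the most abundant members. Of the 17 with an E of at least 1000 TPM, 9 were inside the window for BaP 10hpf over BaP eggs and the other 8 were over 1/0.8. Between 200 and 1000 TPM it was 33 of 39, between 100 and 200 TPM 96 of 112, and under 100 TPM 25 of 32. The 17 were short, with a median length of 438 bases, and their median coefficient of variation between replicate libraries was 19.3%, against 7.32% for those under 100 TPM. The median control M/E of the 17 was 1.11, against 0.997 to 1.01 in the lower ranges of E. For Cm.Bf.10hpf over BaP eggs 11 of the 17 were inside, and 34 of 39, 97 of 112 and 25 of 32 in the lower ranges. Whether the spread, the length, the control ratio or the 2 BaP 10hpf libraries of high summed share set the difference was not tested.

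**Figure D2:**
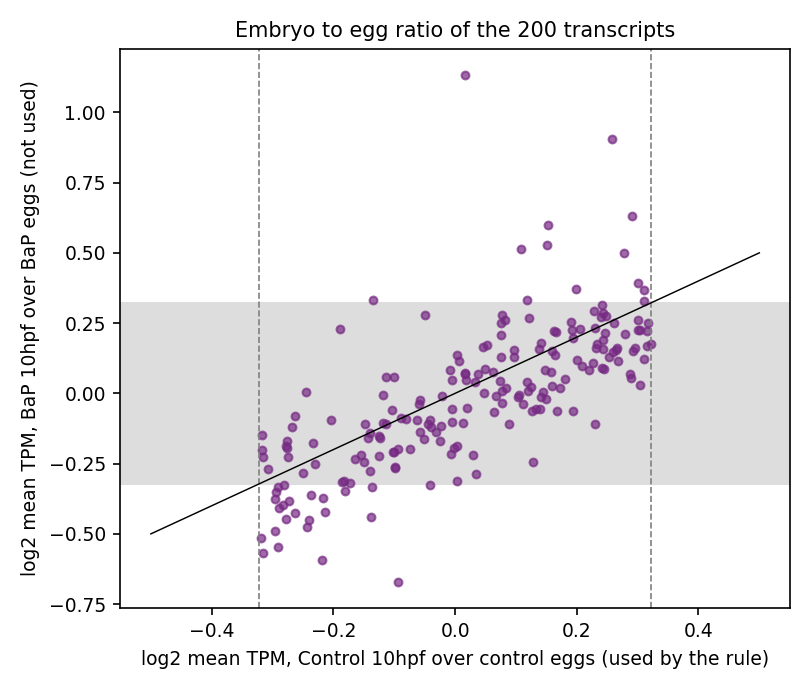
Log2 ratio of mean TPM in BaP 10hpf embryos over BaP eggs (vertical) against Control 10hpf over control eggs (horizontal) for the 200 transcripts, 1 point each. The grey band and the dashed lines mark ratios of 0.8 and 1/0.8 and the diagonal marks equal ratios. Of the points, 163 lie in the band, 24 below and 13 above it.

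How level the set appears depended on the scale. TPM divides by the sum of a library's length-corrected values and CPM by the total count alone, while TMM factors (trimmed mean of M-values) rescale totals so that the central transcripts do not differ on average. TMM factors were 1.17 to 1.23 in eggs and 0.813 to 1.00 in embryos. The median ratio of BaP 10hpf over BaP eggs was 0.996 in TPM, 1.08 in CPM and 1.33 in CPM with TMM factors, and 163, 155 and 81 of the 200 were inside the window. For Cm.Bf.10hpf over BaP eggs the medians were 1.03, 1.08 and 1.41, with 167, 153 and 53 inside. In controls, where the TPM window was the choice itself, the medians were 1.03, 1.07 and 1.39.

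**Figure D3:**
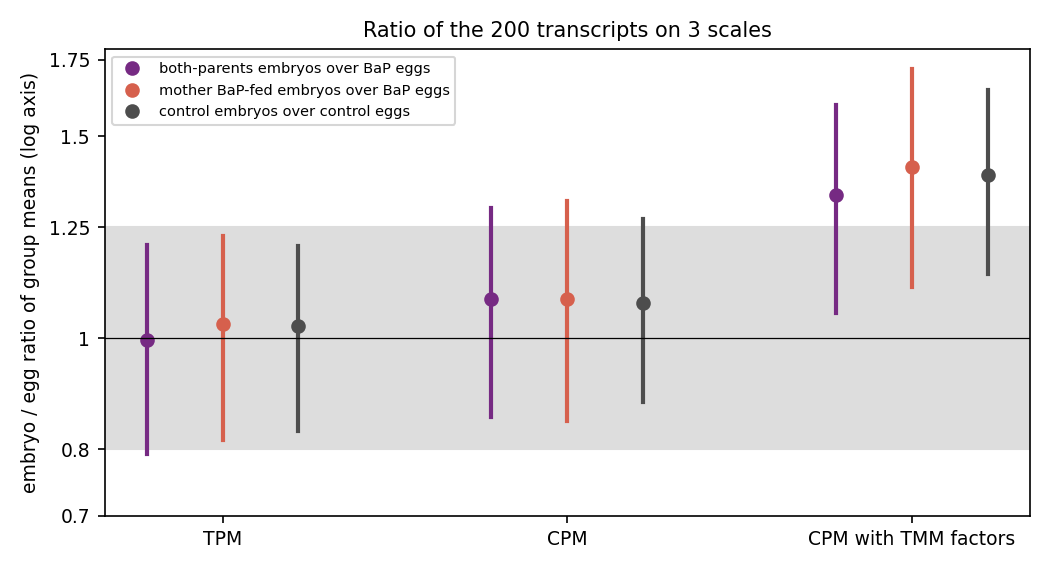
Embryo to egg ratio of group means for the 200 transcripts on 3 scales (vertical, log axis), for BaP 10hpf over BaP eggs, Cm.Bf.10hpf over BaP eggs, and Control 10hpf over control eggs. Points are medians, lines run from the 10th to the 90th percentile of the 200, and the grey band is the window of 0.8 to 1/0.8. The medians lie near 1 in TPM and at 1.33, 1.41 and 1.39 with TMM factors.

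The tests carried that dependence on scale with them. With edgeR's quasi-likelihood test and TMM factors, 136 of the 200 rose in BaP 10hpf embryos relative to BaP eggs and 0 fell, where a call is an adjusted p under 0.05. Over all 32662 transcripts tested, 38.7% were called higher and 35.4% lower. The median log2 fold change was 0.42 over the 200 and 0.05 over all tested, and the 1488 tested of like egg level had a median of -0.83. The choice had placed those 1488 outside the window in controls, mostly under it. The contrast between their median and that of the 200 therefore carries no test. In controls the choice had placed the 200 at ratios of 1.04 to 1.81 in CPM with TMM factors, all above 1. The lean of the calls toward rises in the BaP lineage is thus not read as a result about the set. In Cm.Bf.10hpf embryos 158 of the 200 rose and 0 fell, beside 38.6% higher and 35.9% lower over all tested, with medians of 0.50 and 0.05.

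Against TMM factors, the other scales moved the medians of the 200 and of all tested in the same direction. In log2(TPM + 1) they moved by unlike amounts. With total counts alone, 58 of the 200 rose and 20 fell in BaP 10hpf embryos relative to BaP eggs, beside 34.0% higher and 40.5% lower of all tested. With limma on log2(TPM + 1), 30 rose and 36 fell, where 33.6% of all tested were called higher and 44.4% lower. The median over all tested moved to -0.25 with total counts, to -0.19 in log2(TPM + 1) and to 0.29 with upper-quartile factors. That of the 200 moved to 0.11, 0.001 and 0.65. Against that of all tested, the median of the 200 was higher by 0.36 with TMM factors, total counts and upper-quartile factors. In log2(TPM + 1) it was higher by 0.19. There the added 1 pulls low levels toward 0 and hardly touches the 200. TPM also divides by effective lengths that differed between eggs and embryos. In BaP eggs and BaP 10hpf they averaged 231 and 209 bases for ENSDART00000157206.2, and 155 and 160 bases for ENSDART00000192091.1. The part of each was not tested. The count scales differ only in a factor per library, which moves all transcripts nearly alike. Their equal differences were thus fixed in advance and are no sign of stability. In Cm.Bf.10hpf embryos 66 rose and 20 fell with total counts, beside 32.8% higher and 42.0% lower of all tested. With limma on log2(TPM + 1) 39 rose and 36 fell there, beside 32.4% higher and 45.0% lower. Relative to the median over all tested, the 200 were higher there by 0.45 with counts and by 0.26 in log2(TPM + 1). In the control contrast that chose the set, edgeR with TMM factors called 146 of the 200 higher and 0 lower, beside 37.2% higher and 38.5% lower over all tested, from which nothing is read.

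The members with the largest rises on the TMM scale were uneven or short. ENSDART00000181202.1, of 477 bases, had 143, 68.4, 122 and 167 TPM in BaP 10hpf embryos, against 118, 11.02, 22.0 and 77.1 TPM in BaP eggs. The groups overlapped, with 2 of the BaP egg libraries near the bottom. Its log2 fold change was 1.60 ± 0.66 (SE), with an edgeR adjusted p of 0.0462, and leaving out 1 library ended the call in 8 of 12 fits (adjusted p 0.0111 to 0.107). Control eggs ran just as wide, at 251, 194, 28.4 and 144 TPM. ENSDART00000186090.1, described above, rose by 1.41 ± 0.41 on the log2 scale (edgeR adjusted p = 0.00785), a call that limma on log2(TPM + 1) did not make (adjusted p = 0.0754).

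In Cm.Bf.10hpf embryos the rises named were those of ENSDART00000192091.1 and ENSDART00000157206.2. ENSDART00000157206.2, of 374 bases, had 549.8, 789.8, 597 and 977 TPM in Cm.Bf.10hpf embryos, against 394, 515, 497 and 445 TPM in BaP eggs. Every embryo library was above every egg library. The log2 fold change was 1.06 ± 0.18 (SE, edgeR adjusted p = 0.000251). ENSDART00000192091.1, of 246 bases, had 137, 262, 152 and 290.4 TPM in Cm.Bf.10hpf embryos, against 132, 142, 137 and 178 TPM in BaP eggs. The groups overlapped, with 2 embryo libraries above all egg libraries. Its log2 fold change was 1.09 ± 0.23 (SE, edgeR adjusted p = 0.000920), and limma on log2(TPM + 1) did not make the call (adjusted p = 0.0812).

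No member fell in either comparison with TMM factors, and those nearest to it depended on the scale. ENSDART00000073883.5, of 908 bases, had 90.2, 76.5, 80.9 and 70.0 TPM in BaP 10hpf embryos and 87.2, 76.3, 76.0 and 80.9 TPM in Cm.Bf.10hpf embryos, against 120.1, 115, 102 and 133 TPM in BaP eggs. In TPM every embryo library of both crosses was below every egg library. On the TMM scale its log2 fold change in BaP 10hpf over BaP eggs was -0.16 ± 0.09 (SE, edgeR adjusted p = 0.143), and with limma on log2(TPM + 1) it was -0.56 (adjusted p = 0.000158). ENSDART00000141064.2, of 549 bases, had 64.0, 18.8, 44.6 and 57.6 TPM in Cm.Bf.10hpf embryos, against 89.6, 88.4, 112 and 113 TPM in BaP eggs, with no overlap. Its log2 fold change was -0.60 ± 0.32 on the TMM scale (SE, edgeR adjusted p = 0.111) and -1.23 with limma on log2(TPM + 1) (adjusted p = 0.00459).

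Separation between library ranges in TPM gave a further description of the step. In BaP 10hpf embryos 20 of the 200 had all 4 libraries above all 4 BaP egg libraries and 27 had all below, beside 29.9% above and 45.6% below over all transcripts with a mean of at least 1 TPM. In Cm.Bf.10hpf embryos it was 32 above and 27 below, beside 29.8% and 47.3%. For most of the 200, then, egg and embryo ranges overlapped in TPM.

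Across all 6 groups the spread was narrow for most members. The highest of the 6 group mean TPM values was at most 1/0.8 times the lowest for 122 of the 200, at most 1.5 times for 186 and at most 2 times for 198. Both control groups, which the choice had placed close together, count among the 6. For 145, the means of all 5 other groups were within 0.8 to 1/0.8 of the control egg mean, 1 of the 5 being Control 10hpf, which was there by the choice. At the level of single libraries, 33 had all 24 values within 0.8 to 1/0.8 of E, and 184 had all 24 within 0.5 to 2 times E. Among the 4 crosses alone, the highest mean was at most 1/0.8 times the lowest for 182 members (91.0%). Of the transcripts of like egg level, 427 of the 484 with an M/E over 1/0.8 (88.2%) were that even, and 555 of the 1005 with an M/E under 0.8 (55.2%). The median coefficient of variation between replicates lay between 6.08% in Cm.Bf.10hpf and 10.5% in BaP 10hpf embryos.

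The steadiest member was ENSDART00000104831.4, of 974 bases, whose highest group mean was 1.06 times its lowest. It had 135, 151, 134 and 116 TPM in BaP 10hpf embryos, 128, 138, 133 and 124 TPM in Cm.Bf.10hpf embryos, 132, 132, 132 and 145 TPM in Cf.Bm.10hpf embryos and 126, 146, 131 and 145 TPM in Control 10hpf embryos. BaP eggs had 129.9, 140.5, 138 and 147 TPM and control eggs 129.97, 138, 147 and 126 TPM. All 6 groups overlapped. ENSDART00000013011.7, of 1890 bases, was next at 1.07 times, with group means between 135 and 144 TPM. At the other end ENSDART00000181202.1 had a ratio of 2.74 and ENSDART00000141064.2 one of 2.27. ENSDART00000141064.2 averaged 63.3 ± 19.8 TPM in BaP 10hpf and 46.2 ± 20.0 TPM in Cm.Bf.10hpf embryos, against 90.5 ± 28.7 TPM in Cf.Bm.10hpf and 98.3 ± 33.6 TPM in Control 10hpf embryos (SD, n = 4 each).

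**Figure D4:**
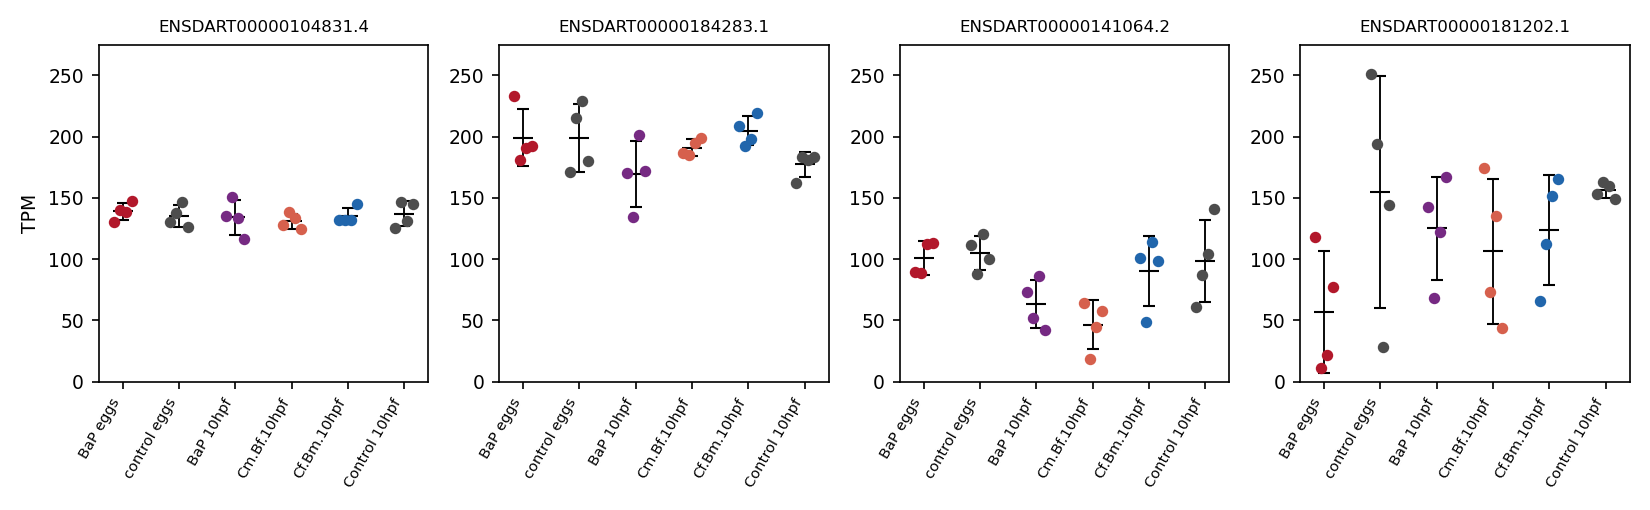
TPM of 4 members in every library by group, with the mean and SD of the 4 libraries: ENSDART00000104831.4 (smallest spread of group means), ENSDART00000184283.1 (the member called in the interaction), ENSDART00000141064.2 and ENSDART00000181202.1 (largest spread of group means). The group means of ENSDART00000104831.4 differ by at most 1.06 times, while single libraries of ENSDART00000181202.1 run from 11.02 to 251 TPM.

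Eggs of BaP-fed mothers were then set against control eggs. The control eggs had also served to choose the set. Of the 200, 193 had a ratio of mean TPM between 0.8 and 1/0.8, beside 75.0% of all transcripts with a mean of at least 1 TPM and 92.7% of those of like egg level. edgeR called 0 of the 200 and 0.0% of the 29023 tested, with 5 of the 200 and 3.6% of all tested at an unadjusted p under 0.05, and DESeq2 called 0 of the 200 and 0.297% of all it tested. The median log2 fold change was -0.04 over the 200, -0.04 over the tested transcripts of like egg level and -0.00 over all tested. The member of smallest p was ENSDART00000157206.2, with 394, 515, 497 and 445 TPM in BaP eggs, against 769, 646, 682 and 469 TPM in control eggs. The ranges overlapped and the log2 fold change was -0.50 ± 0.15 (SE, edgeR adjusted p = 1.00).

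In embryos with both parents BaP-fed, 194 of the 200 had a mean TPM within 0.8 to 1/0.8 of that in Control 10hpf embryos, beside 72.1% of all transcripts with a mean of at least 1 TPM. Of the transcripts of like egg level, most of which had an M/E under 0.8, 79.1% were within it. In 200 others, those of highest E with an M/E over 1/0.8, the ratio ran from 0.837 to 1.105 (10th to 90th percentile). In the members it ran from 0.880 to 1.077. edgeR called 0 of the 200 and 0.00324% of the 30894 tested, with 31 of the 200 and 10.4% of all tested at an unadjusted p under 0.05. DESeq2 called 3 of the 200, all lower, beside 0.599% lower of all it tested. The median log2 fold change was -0.09 over the 200, -0.03 over the tested transcripts of like egg level and 0.03 over all tested. Between the 200 and all tested the difference was -0.12, and the transcripts of like egg level lay between them. The difference was -0.09 in log2(TPM + 1), and factors per library, as in total counts or upper-quartile factors, could hardly change it. Control 10hpf embryos had also served to choose the set, here and in the comparisons that follow.

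ENSDART00000029387.8, of 1872 bases, had the smallest p among the members with lower values. It had 101, 107, 118 and 99.9 TPM in BaP 10hpf embryos, against 127, 123, 131 and 150.5 TPM in Control 10hpf embryos. All BaP 10hpf libraries were below all control libraries. Its log2 fold change was -0.40 ± 0.07 (SE), which edgeR did not call (adjusted p = 0.236) and DESeq2 did (adjusted p = 0.000106, with a range of 0.000106 to 0.517 over the alternatives). Its estimated counts were whole numbers to within 0.001 in all 24 libraries. ENSDART00000112389.3, of 2648 bases, had 168, 167, 192 and 162 TPM in BaP 10hpf embryos, against 192, 199, 186 and 188 TPM in Control 10hpf embryos. Its ranges overlapped in TPM, and the log2 fold change was -0.20 ± 0.05 (SE, edgeR adjusted p = 0.346).

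With only the mother BaP-fed, 193 of the 200 were within 0.8 to 1/0.8 of Control 10hpf in mean TPM, beside 81.2% of all transcripts with a mean of at least 1 TPM. Of the transcripts of like egg level, 87.1% were within it. In 200 others, those of highest E with an M/E over 1/0.8, the ratio ran from 0.880 to 1.111 (10th to 90th percentile). In the members it ran from 0.901 to 1.092. edgeR called 0 of the 200 and 0.0% of the 30894 tested, with 5 of the 200 and 4.18% of all tested at an unadjusted p under 0.05, and DESeq2 called 0 of the 200 and 0.244% of all it tested. The median log2 fold change was -0.00 over the 200 and 0.00 over all tested. The smallest p among the members with higher values was that of ENSDART00000034730.8, of 2586 bases, also with estimated counts whole to within 0.001 in all 24 libraries. It had 258, 253, 281 and 247 TPM in Cm.Bf.10hpf embryos and 293, 240.05, 255 and 256 TPM in BaP 10hpf embryos, against 218, 201, 223 and 217 TPM in Control 10hpf embryos. Every library of both crosses with a BaP-fed mother was above every control library, and Cf.Bm.10hpf, at 239, 265, 211 and 209 TPM, overlapped with all 3. The log2 fold change was 0.31 ± 0.10 in Cm.Bf.10hpf (SE, edgeR adjusted p = 1.00) and 0.27 ± 0.10 in BaP 10hpf (SE, edgeR adjusted p = 0.414).

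With only the father BaP-fed, the set stood slightly above controls as a whole on the TMM scale and no member passed the test. Of the 200, 196 were within 0.8 to 1/0.8 of Control 10hpf in mean TPM, beside 72.1% of all transcripts with a mean of at least 1 TPM. Of the transcripts of like egg level, 83.1% were within it. In 200 others, those of highest E with an M/E over 1/0.8, the ratio ran from 0.937 to 1.116 (10th to 90th percentile). In the members it ran from 0.934 to 1.095. edgeR called 0 of the 200 and 0.424% of the 30894 tested, with 40 of the 200 and 11.1% of all tested at an unadjusted p under 0.05, and DESeq2 called 4, all higher, beside 0.657% higher of all it tested. The median log2 fold change was 0.13 over the 200, 0.16 over the tested transcripts of like egg level and 0.01 over all tested. The log2 fold change was above 0 for 182 of the 200 (91.0%) with TMM factors, 143 with total counts and 111 in log2(TPM + 1). With TMM factors it was above 0 for 88.4% of the tested transcripts of like egg level and 51.3% of all tested. Relative to the median over all tested, the 200 were higher by 0.12 with TMM factors and by 0.08 in log2(TPM + 1). With a trend on transcript length removed they were higher by 0.10. With total counts or upper-quartile factors the difference was 0.12 too, since a factor per library hardly changes it. Across the 200, log2 fold change and length had a Spearman rho of -0.24, and the part of length in the difference was not otherwise tested.

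The last comparison set the change in BaP 10hpf embryos against the sum of the changes in Cm.Bf.10hpf and Cf.Bm.10hpf embryos, all relative to Control 10hpf (the mother by father interaction). A negative value means that the level with both parents BaP-fed was below that sum. edgeR called 1 of the 200, lower, and 0.9% of the 30894 tested, of which 0.822% higher and 0.0777% lower. DESeq2 called 10 of the 200, all lower, beside 1.15% lower of all it tested. The median was -0.20 over the 200, -0.21 over the tested transcripts of like egg level and 0.01 over all tested. The interaction was above 0 for 11 of the 200 with TMM factors, 60 with total counts and 62 in log2(TPM + 1). With TMM factors it was above 0 for 15.6% of those of like egg level and 51.2% of all tested. With total counts the median of the 200 was -0.06 and that of all tested 0.16. The difference between them was -0.22 with TMM factors and total counts alike, since a factor per library hardly changes it. In log2(TPM + 1) it was -0.15.

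The member called was ENSDART00000184283.1, of 926 bases, whose estimated counts were whole numbers to within 0.001 in all 24 libraries. It had 170.3, 135, 201 and 172 TPM in BaP 10hpf, 186, 185, 195 and 199 TPM in Cm.Bf.10hpf, 209, 192, 198 and 219 TPM in Cf.Bm.10hpf and 162, 183, 181 and 183 TPM in Control 10hpf embryos. All libraries of both single-parent crosses were above all control libraries, and the BaP 10hpf libraries ran from below the controls to above them. The log2 fold change over Control 10hpf was -0.04 ± 0.08 in BaP 10hpf, 0.16 ± 0.08 in Cm.Bf.10hpf and 0.34 ± 0.08 in Cf.Bm.10hpf (SE, edgeR adjusted p = 0.918, 1.00 and 0.0942). The interaction was -0.54 ± 0.12 (SE, edgeR adjusted p = 0.0454). The call ended in 13 of the 16 fits that left out 1 library (adjusted p 0.0243 to 0.110) and in limma on log2(TPM + 1) (-0.39, adjusted p = 0.199), and the sign did not change.

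**Figure D5:**
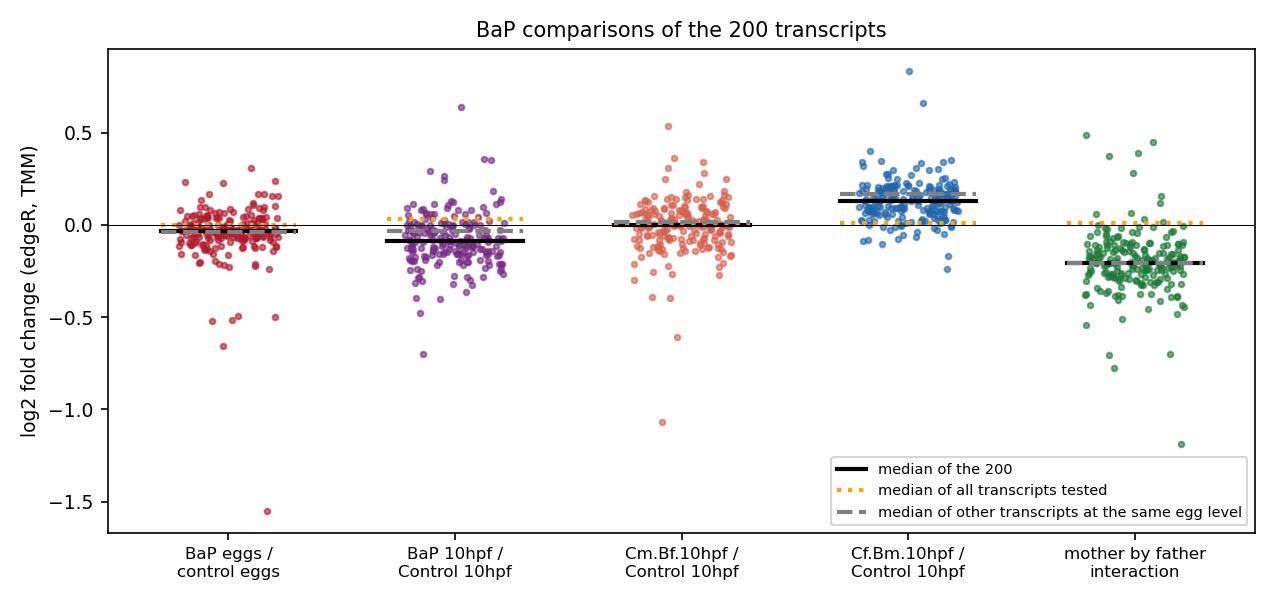
Log2 fold change (edgeR, TMM factors) of the 200 transcripts in the 4 comparisons of BaP with control and in the mother by father interaction, 1 point per transcript. Solid lines are medians of the 200, dotted lines those of all transcripts tested and dashed lines those of other transcripts at the same egg level. The medians of the 200 are -0.04, -0.09, -0.00, 0.13 and -0.20 from left to right.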

How the data were processed

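RNA was measured in 24 libraries, 4 in each of 6 groups. The 32 bisulfite samples were not analysed here. Per the labels' protocols, ribosomal RNA was depleted from total RNA and both ends of fragments were read. The submitters' processing notes name FastQC, Salmon, DESeq2 and the build GRCz11, with versions not given in the sources used here. The deposited values, per the file headers, are TPM, estimated counts (expected counts that need not be whole), lengths and effective lengths of 57192 transcripts, the effective ones being what TPM divides by. The deposited TPM values chose the set and describe levels. The deposited estimated counts, once rounded, were tested.

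The 200 members, the tests and their alternatives were chosen with earlier results of these data, from another analysis, known. Tests used edgeR 4.0.16 in R 4.3.3 (TMM factors, filterByExpr by group, robust quasi-likelihood fit) over all transcripts that passed the filter, with Benjamini-Hochberg adjustment and an adjusted p under 0.05 as the call. Eggs had a fit of their own, the 16 embryo libraries shared one, and BaP eggs shared one with both crosses that had a BaP-fed mother. All 200 passed each filter. Alternatives included RLE factors, DESeq2 1.42.0, no filter, a replicate block, leaving out each library, fits of only the 2 groups compared and a length trend removed. Total counts alone, upper-quartile factors and limma 3.58.1 on log2(TPM + 1) were added later still, after seeing the data here. In each comparison at most 2 transcripts higher and 2 lower were eligible to be named: those past the threshold with the largest fold change, otherwise those of smallest p. The text names some of these. Gene lists could not be applied without gene names.

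The fits were tested on simulated data. For BaP eggs against control eggs (29023 transcripts) edgeR recovered 34 of 100 simulated 2-fold changes and 74 of 100 4-fold ones, and for BaP-fed fathers (30894) 58 and 95. For the interaction it recovered 22 and 78, and for BaP 10hpf over BaP eggs (32662) 35 and 86. Between 3.16% and 3.97% of edgeR's calls were false. limma on log2(TPM + 1) recovered fewer, 9 and 63 for the interaction and 18 and 71 for BaP 10hpf over BaP eggs. Of its calls there, 5.26% and 11.9% were false. Few transcripts were changed in each simulation, drawn from all but the lowest levels, and all libraries had the same baseline composition. The simulated spread came from the count dispersion of the fit alone, without the further spread per transcript that the quasi-likelihood test estimates. The rates may therefore be too favourable for the real comparisons. The simulated TPM divided by full transcript lengths, where the deposited TPM divides by effective lengths. In the real step from BaP eggs to BaP 10hpf, 24206 of 32662 were called. The rates therefore do not carry over to that step and are not specific to the 200.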

Additional observations from a re-analysis of the deposited data

Results flagged for a closer look

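In 10 of 144 groups of 4 libraries, 1 library stood apart from the other 3 by Dixon's test at the 95% level, where chance gives about 5.0% of groups. The summed share of the members without ENSDART00000186090.1 was 7.62% in Cm.Bf.10hpf replicate 3, against 8.06% to 8.13% in the other 3. ENSDART00000186090.1 stood at 51565 TPM in Cm.Bf.10hpf replicate 1 (others 28525 to 30664) and at 44487 TPM in Cf.Bm.10hpf replicate 2 (others 18043 to 21053). ENSDART00000037914.6 was at 128 TPM in BaP eggs replicate 4 (others 179 to 189.5), and ENSDART00000010140.7 at 119 TPM in BaP eggs replicate 3 (others 139 to 142). ENSDART00000157206.2 was at 774 TPM in Cf.Bm.10hpf replicate 3 (others 711 to 722), and ENSDART00000104831.4 at 145 TPM in Cf.Bm.10hpf replicate 4 (others 132.1 to 132.2). ENSDART00000179658.1 was at 367 TPM in Control 10hpf replicate 1 (others 249 to 265), and ENSDART00000184283.1 at 162 TPM in the same library (others 181 to 183). ENSDART00000013011.7 was at 149.9 TPM in control eggs replicate 3 (others 139 to 140.2). Over all 200 members, Cf.Bm.10hpf replicate 4 stood apart for 10 (5.0%) and each of the other 23 libraries for at most 5 (2.5%). The same share over all transcripts is not given here, so nothing is read from this about that library.

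ENSDART00000184283.1 is listed because its effect of BaP-fed fathers differed between crosses with and without a BaP-fed mother, with an interaction of -0.54 (log2, edgeR adjusted p = 0.0454) that leaving out 1 library often ended.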

How the results depend on the processing

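Of the counts of members called against control, those for BaP eggs and for Cm.Bf.10hpf were 0 under every alternative run. DESeq2 gave 4 for Cf.Bm.10hpf, 3 for BaP 10hpf and 10 for the interaction, and leaving out 1 library gave 0 to 1 for Cf.Bm.10hpf, 0 for BaP 10hpf and 0 to 1 for the interaction. Over all transcripts tested, the fits that left out 1 library gave 2 to 344, 0 to 2 and 90 to 422 calls. The 1 member called in the interaction became 0 with no filter (adjusted p = 0.0748), with total counts (0.0733), upper-quartile factors (0.0560), limma on log2(TPM + 1) (0.199) and the length trend removed (0.0711). Replicate numbers were shared between groups, and libraries of the same number correlated at -0.123 to 0.234 in their deviations. For no 2 groups were all 4 such correlations over 0.1, so the numbers were not taken as pairs. For BaP 10hpf with Cm.Bf.10hpf (0.0378 to 0.234) and for Cm.Bf.10hpf with BaP eggs (-0.0806 to 0.172), 3 of 4 were, and 6 of 8 libraries correlated best with their own number in the other group, against 0 to 3 of 8 between Control 10hpf or Cf.Bm.10hpf and another cross. It was also 6 of 8 for BaP 10hpf with BaP eggs and 5 of 8 for BaP eggs with control eggs, with 1 of 4 correlations over 0.1 in each. With the replicate block the interaction had 0 calls (adjusted p = 0.0637 for ENSDART00000184283.1), BaP 10hpf over BaP eggs 138 and Cm.Bf.10hpf over BaP eggs 155, and the other 4 counts stayed at 0. Over all transcripts tested with the block, 144, 23930 and 24040 were called in the first 3 of these.

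Members called in BaP 10hpf over BaP eggs numbered 78 with total counts and 66 with limma on log2(TPM + 1), and those in Cm.Bf.10hpf over BaP eggs 86 and 75. Leaving out 1 library gave 129 to 140 and 144 to 160, where 23704 to 24688 and 23869 to 24938 of all tested were called. Members within the window in the BaP lineage fell to 81 and 53 on the scale of CPM with TMM factors, where the median ratio of BaP 10hpf over BaP eggs was 1.33. Leaving out or re-choosing without 1 library gave 154 to 167 and 161 to 175 inside, with a median ratio of 0.971 to 1.02. With a window of 0.67 to 1.5 for the choice the median was 1.05.

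The summed share of all transcripts inside the window with E of at least 10 TPM was 14.4% of TPM in BaP eggs, 14.3% in control eggs, and 17.3%, 15.9%, 15.04% and 15.1% in BaP 10hpf, Cm.Bf.10hpf, Cf.Bm.10hpf and Control 10hpf embryos. As a share of estimated counts the 200 took 4.92% in BaP eggs, 4.99% in control eggs, and 5.87%, 5.61%, 5.73% and 5.46% in those 4 crosses. The smallest estimated count of any member in any library was 39.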
